A study of Mus musculus with 4 samples.

Results

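Collagen genes were followed in the lumbar spinal cord of nerve-injured mice with and without adrenal glands. A gene was taken as a collagen gene when its name on the array was Col, a number, the letter a, a number and nothing more. The array held 43 such genes of 30222 gene names, read by 68 of 39429 probes and 77 of 43020 spots. For a gene with several probes, the probe with the highest mean level was used. Each level is the quantile-normalised intensity deposited by the study, in arbitrary units, and because probes differ in brightness the level of one gene is not set against that of another. A probe was counted as measured where the scanner software flagged it as well above background on at least 1 array. This held for 34 collagen genes, of which 32 were well above background on all 4 arrays, and for 21953 gene names in all. The name Col26a1 is not on the array, and its older name was outside the rule.

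Collagens are proteins whose chains wind around each other into a long helix, which needs a glycine at regular steps along each chain. Fibroblasts secrete the fibrillar collagens that give the meninges and nerve sheaths their strength, and vessel and pial cells lay down sheets of collagen IV. In the cord itself, collagen is largely kept to the meninges, the vessels and the nerve roots, although several minor collagens are made by neurons. Glucocorticoids, which come from the adrenal cortex, are known to act on collagen production in skin and bone.

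The 4 arrays came from male ICR mice, an outbred strain, 5 to 6 weeks old. All mice had partial sciatic nerve ligation (PSL) of the right hindlimb, a model of neuropathic pain. Before it, they had been adrenalectomised (ADX) or had a sham operation, and ADX mice drank saline. RNA was taken on day 7 after the ligation at ZT10, in the late light phase, or at ZT22, in the late dark phase, counted in hours from lights on. Adrenalectomy removes the hormones of the whole gland, and no hormone replacement is named for these mice. The 2 operations and the 2 times gave 4 conditions, with 1 array each, written below as sham+PSL or ADX+PSL with the time. The number of mice behind each array and the side of the cord are not given in the sources used here. No array was replicated, so differences between times rest on 2 single arrays, and operations were compared as 2 arrays against 2. An exact permutation test of 2 against 2 cannot give a two-sided p below 0.333. Errors printed as spot error come from the scanner software's noise model and do not cover differences between animals.

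Markers of the labelled tissue were present. All 9 neuron, 8 astrocyte, 6 oligodendrocyte and 8 lumbar Hox markers were measured. On 2 arrays, markers of other tissues stood apart. Skeletal muscle markers summed to 2809 on the sham+PSL ZT10 array and to 353, 254 and 251 on sham+PSL ZT22, ADX+PSL ZT10 and ADX+PSL ZT22. Red blood cell markers summed to 18767 on the sham+PSL ZT22 array, against 89810 to 135910 on the others. All arrays lay on 1 slide, and between 65.1% and 70.1% of probes were well above background.

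A probe over the repeat shows what is being read. One of 4 probes for Col25a1, a membrane-anchored collagen of neurons, hybridises to chr3:130270497-130270556 (mm9, plus strand), and its letters spell the repeat, with 6 glycine codons (capitals) spaced 3 codons apart.
Col25a1 probe: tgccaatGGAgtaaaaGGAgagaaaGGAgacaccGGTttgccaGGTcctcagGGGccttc
This probe read 35.5 and 38.5 on the sham+PSL arrays at ZT10 and ZT22, and 33.9 and 42.4 on the ADX+PSL arrays, so the operations overlapped. Probes are placed here by their mm9 coordinates only, and were not assigned to exons or untranslated regions.

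The major fibrillar collagens were much lower without the adrenal glands. Col1a1 and Col1a2, the chains of type I collagen, and Col3a1, the chain of type III collagen, make the main fibrils of connective tissue. Col1a1 (probe at chr11:94813115-94813174, mm9, plus strand) read 1809 at ZT10 and 1574 at ZT22 in sham+PSL, and 336 and 318 in ADX+PSL. Col3a1 (chr1:45405589-45405648, plus strand) read 720.3 and 950.2 in sham+PSL, and 136 and 198 in ADX+PSL. Col1a2 (chr6:4490619-4490678, plus strand) read 4779.9 and 3963 in sham+PSL, and 1672 and 1809.6 in ADX+PSL. For these genes both ADX+PSL arrays lay far below both sham+PSL arrays, and the gap between the operations was wider than the range within either. The mean ADX+PSL level was 19.4% of the sham+PSL level for Col1a1, 19.8% for Col3a1 and 40.0% for Col1a2. On the log2 scale the differences, ADX+PSL minus sham+PSL, were -2.37, -2.33 and -1.32, each with a spot error of 0.14 to 0.15.

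These differences were present at each time. Col1a1 differed by -2.43 (log2) at ZT10 and by -2.31 at ZT22, Col3a1 by -2.41 and -2.26, and Col1a2 by -1.52 and -1.13. In an additive limma model with operation and time (4 arrays, 1 residual degree of freedom), the operation coefficient of Col1a1 was -2.37 ± 0.12 (SE), with an unadjusted p of 0.000409 and a Benjamini-Hochberg adjusted p of 0.613. In the same limma fit the adjusted p was 0.613 for Col3a1 and 0.699 for Col1a2. No gene of the 21953 tested passed an adjusted p of 0.05 for operation (0.0%), and neither did any collagen gene. With 1 residual degree of freedom this fit made no calls on simulated data either, so the absence of calls is no sign that levels were alike. When limma's prior variance followed the mean intensity, 39 genes passed. Among the 33 lower ones (0.15% of genes tested) were Col1a1 and Col3a1, each with an adjusted p of 0.00299, and Col1a2, with 0.0391. The same 3 genes stayed at least 2-fold lower under each of 9 other settings of normalisation, background correction and filter.

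The other fibrillar collagens split. Col5a1, whose chain nucleates type I fibrils, was lower in ADX+PSL. It read 133 and 187 in sham+PSL at ZT10 and ZT22, and 84.1 and 80.9 in ADX+PSL, a log2 difference of -0.94. Its partner chain Col5a2 read 98.6 and 110.4 against 98.5 and 96.0, so the arrays of the 2 operations were separated by less than the spot error. Col5a3 read 328.7 and 335.8 in sham+PSL, and 444.6 at ZT10 and 248 at ZT22 in ADX+PSL, with a mean difference of 0.00. The cartilage-type fibrillar collagens Col2a1, Col11a1 and Col11a2 differed by 0.23, 0.09 and -0.13 (log2). Of these, Col2a1 was higher on both ADX+PSL arrays, at 123 and 113 against 91.2 and 110.6, but at ZT22 the difference was 0.03. Col24a1, a fibrillar collagen known from bone, read 152 and 105 in sham+PSL and 167 and 163 in ADX+PSL, a difference of 0.38. Col27a1 read 129 and 119.6 against 121.6 and 141, a difference of 0.08.

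**Figure D1:**
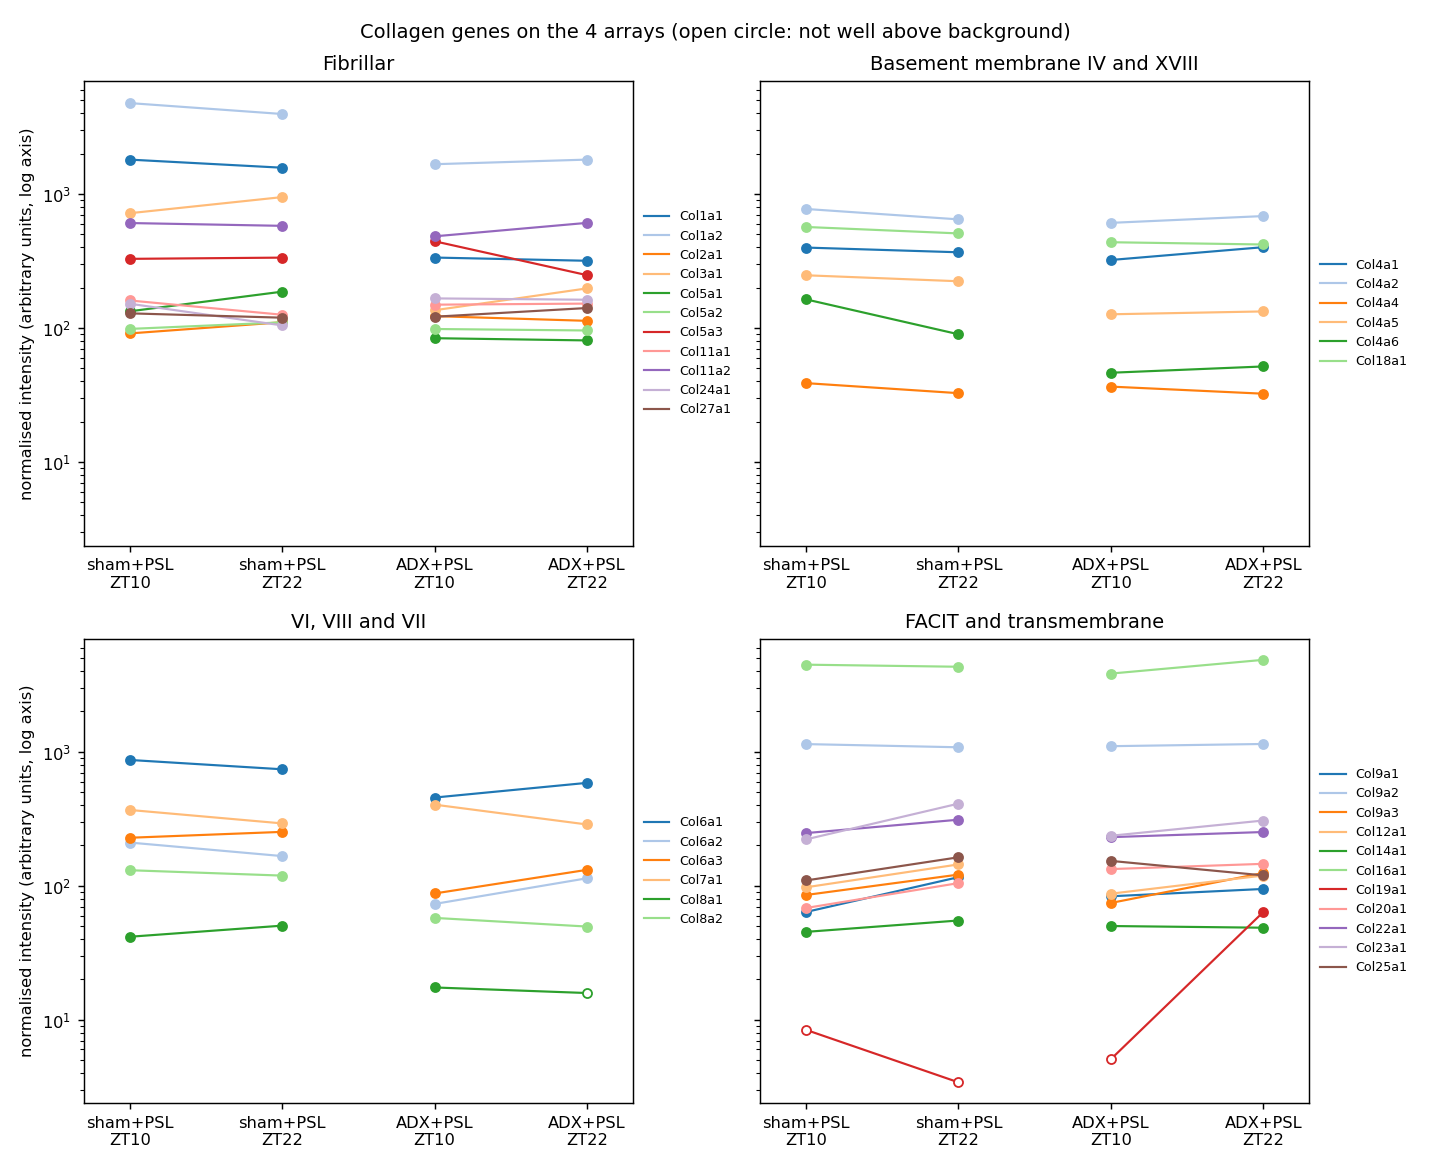
Normalised intensity (log axis, arbitrary units) of the 34 measured collagen genes on each of the 4 arrays, with 1 point per array, lines joining ZT10 and ZT22 of an operation and open circles for arrays where the probe was not well above background. Col1a1, Col1a2, Col3a1, Col6a3, Col8a1 and Col8a2 drop between the sham+PSL and the ADX+PSL pair, whereas Col9a2, Col16a1 and Col4a2 keep about the same level.

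Chains of the beaded filaments and the short-chain networks were lower as well. Collagen VI forms fine beaded filaments around cells and beside basement membranes. Its 3 classical chains, Col6a1, Col6a2 and Col6a3, were lower on each ADX+PSL array than on either sham+PSL array, whereas Col6a4, Col6a5 and Col6a6 were not above background on any array. Col6a3 read 228 and 253 in sham+PSL, and 87.7 and 132 in ADX+PSL. Col6a2 read 210.2 and 167 against 73.2 and 114, and Col6a1 read 869.5 and 740.6 against 456 and 587. The log2 differences were -1.16, -1.04 and -0.63, and each was smaller at ZT22 (-0.94, -0.55 and -0.34) than at ZT10 (-1.38, -1.52 and -0.93). That contrast between times rests on single arrays and was not tested.

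Collagen VIII, a product of vessel wall and other lining cells, builds hexagonal sheets from short chains. Col8a2 read 131 and 119 in sham+PSL and 57.6 and 49.6 in ADX+PSL, a log2 difference of -1.22. Col8a1 read 41.7 and 50.4 in sham+PSL and 17.4 and 15.8 in ADX+PSL, and the last value was not well above background. Its log2 difference was -1.26 at ZT10 and, as a bound, at most -1.18 at ZT22. For both genes the arrays of the 2 operations did not overlap. Col10a1, the hypertrophic cartilage member of the class, was not above background.

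In the collagen IV family, the widespread chains overlapped between operations and Col4a5 and Col4a6, at their brightest probes, did not. Col4a1 and Col4a2 are in almost every basement membrane. Col4a2 read 775 and 648 in sham+PSL and 610.1 and 686 in ADX+PSL, and Col4a1, printed 10 times on each array, read 399 and 368 against 322 and 402. Both sets overlapped, with log2 differences of -0.13 and -0.09. Col4a5 and Col4a6 are chains of specialised basement membranes, and Col4a5 is mutated in hereditary kidney disease. Col4a5 read 248 and 224 in sham+PSL against 127 and 133 in ADX+PSL, a log2 difference of -0.86. The brightest probe of Col4a6 read 164 and 90.0 against 46.4 and 51.7, a difference of -1.31. A second Col4a6 probe, in the same gene at chrX:137601433-137601491 (mm9, minus strand), read 78.3 and 71.2 in sham+PSL and 78.6 and 75.6 in ADX+PSL, a difference of 0.05. The 2 probes of Col4a6 therefore gave different answers, and why was not tested. Col4a4 was dim, between 32.4 and 38.8, and Col4a3 was not above background. Col18a1, the basement membrane collagen that carries endostatin, read 569 and 509 in sham+PSL and 437 and 421 in ADX+PSL. Its second probe gave a larger log2 difference, -0.88 against -0.33.

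**Figure D2:**
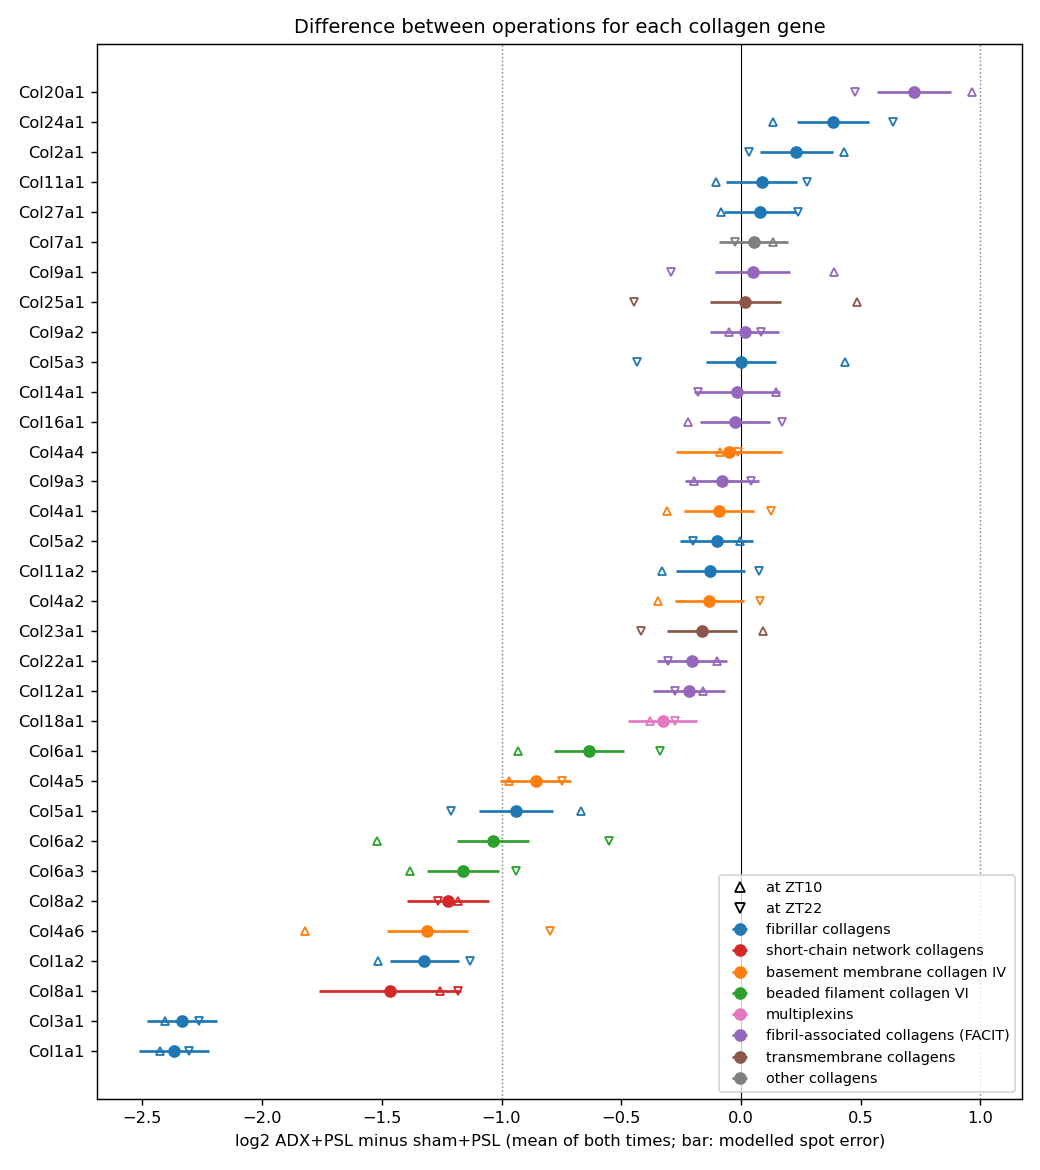
Log2 ADX+PSL minus sham+PSL for the 33 collagen genes measured in both operations, coloured by class. Filled points are means over both times, bars are the modelled spot error, open triangles are the differences at ZT10 and ZT22, and dotted lines mark 2-fold. Values run from -2.37 for Col1a1 to 0.72 for Col20a1. For Col8a1, ADX+PSL was not well above background at ZT22, so its ZT22 triangle is a bound and its filled point uses a background reading.

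The collagens that sit on fibril surfaces, called FACITs, mostly overlapped between operations. None of the 8 FACITs measured in both operations was lower on both ADX+PSL arrays, and over all genes measured in both 15.7% were. Col16a1 (probe at chr4:129776333-129776392, mm9) read 4472 and 4314 in sham+PSL and 3836 and 4858 in ADX+PSL. Col9a2, a chain of the type IX collagen found on cartilage fibrils, read 1142 and 1081 against 1102 and 1144. These genes overlapped between operations, with differences of -0.03 and 0.02. Col22a1 read 247 and 311 against 231 and 252, and Col12a1 97.4 and 144 against 87.3 and 119. Their differences of -0.20 and -0.22 lay within the range between times. Col20a1 had the most positive difference among the collagens measured in both operations. It read 68.3 and 104.7 in sham+PSL and 133 and 146 in ADX+PSL, a log2 difference of 0.72, and 0.51 by its second probe, at a limma p of 0.0331 and an adjusted p of 0.773. Col9a3, Col14a1 and Col9a1 differed by -0.08, -0.02 and 0.05.

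Among the transmembrane collagens, Col23a1 read 222 and 410.3 in sham+PSL and 236 and 307 in ADX+PSL, and Col25a1 read 109.6 and 163 against 153 and 119.6 at its brightest probe. Both overlapped, with differences of -0.16 and 0.02. Probes of 5 collagen genes (Col4a6, Col9a1, Col16a1, Col23a1 and Col25a1) disagreed in the sign of the difference, out of 9 genes with more than 1 measured probe. Col4a6 had the widest gap between probes, 1.36 (log2). Col23a1 came next with 0.71, where a dim probe gave 0.46. The gaps were 0.42 for Col25a1 and Col9a1 and 0.08 for Col16a1. The second Col9a1 probe was well above background on 1 array. Col7a1, the anchoring fibril collagen of skin, read 368 and 292 against 403 and 287, a difference of 0.05. The transmembrane collagens Col13a1 and Col17a1, the multiplexin Col15a1 and Col28a1 were not above background on any array.

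Counted together, 13 of the 34 measured collagen genes (38.2%) had both ADX+PSL arrays below both sham+PSL arrays, and so did 15.8% of all genes tested. Higher on both ADX+PSL arrays were 3 collagen genes (Col2a1, Col20a1 and Col24a1), against 19.4% of all genes. At least 2-fold lower in ADX+PSL were 8 collagen genes, namely Col1a1, Col1a2, Col3a1, Col4a6, Col6a2, Col6a3, Col8a1 and Col8a2, where the share over all genes was 1.13%. With normexp background correction or with the uncorrected signal this count was 3 (Col1a1, Col1a2 and Col3a1) and the share over all genes was 0.351% or 0.323%, and with the second brightest probe it was 5. No collagen gene was at least 2-fold higher, where the share was 0.583%. There was 1 such gene with no filter on dim probes, 1 without the sham+PSL ZT22 array and 1 without the ADX+PSL ZT10 array. The shares over all genes under these settings are not given here. An unadjusted limma p under 0.05 with a lower level in ADX+PSL was reached by 10 collagen genes, where 3.01% of genes reached it. The median log2 difference over the 33 collagen genes measured in both operations was -0.13, beside 0.01 over all genes. With 1 array of an operation left out, the count of lower collagen genes lay between 16 and 20 and the share over all genes between 29.8% and 32.9%. Fewer cells of a type and less RNA per cell cannot be told apart in such bulk samples.

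Genes that act on collagen were lower on both ADX+PSL arrays at a larger share than all genes, with small differences inside the cell. Of 21 measured genes for synthesis and folding in the cell, 8 (38.1%) were lower on both ADX+PSL arrays, where 15.8% of all genes tested were. Among the 8, P4ha3, Lepre1, Plod1 and Plod3 differed by less than their spot error of 0.14 to 0.15. None of the 21 genes differed 2-fold (1.13% of all genes were lower and 0.583% higher by that much), with a median of -0.03 (log2). The brightest of them, Mia3 and Ppib, which serve export and folding, differed by 0.00 and -0.14, and so did P4hb, a subunit of prolyl hydroxylase, with -0.15. The largest negative differences were -0.48 for Fkbp10 and -0.32 for Crtap, both helpers of collagen folding. The largest positive ones were 0.20 for both Plod2 and P4ha1, which hydroxylate lysine and proline.

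Of 11 measured genes for processing and cross-linking outside the cell, 6 (54.5%) were lower on both ADX+PSL arrays, where 15.8% of all genes tested were. The median over the 11 was -0.21. Pcolce, which helps to cut the carboxyl end off procollagen, read 2720 and 1502 in sham+PSL and 516 and 538 in ADX+PSL, a log2 difference of -1.94. Loxl1, a cross-linking oxidase, read 317 and 236 against 110.9 and 117, a difference of -1.26. Bmp1, the protease whose work Pcolce enhances, and Pcolce2 differed by -0.04 and -0.02. The largest positive differences were 0.19 for Loxl3 and 0.18 for Adamts14.

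Proteins that bind fibrils were lower too. In 8 of the 10 genes measured in both operations both ADX+PSL arrays read lower, where 15.7% of all such genes did. At least 2-fold lower were 5 of the 10, where 205 of 20299 genes were. The median over the 10 was -1.02. Omd, Postn and Dpt, each well above background on 1 sham+PSL array alone, are not among the 10. Ogn, a small leucine-rich proteoglycan, read 447.6 and 471 in sham+PSL and 51.9 and 44.1 in ADX+PSL, a difference of -3.26. Dcn, which binds type I collagen fibrils, read 6864 and 6121 against 2262 and 2580.2, a difference of -1.42, and Lum differed by -1.52. Sparc, a collagen-binding protein that glia also make, did not follow, with a difference of 0.00. Fn1 read 5682 on the sham+PSL ZT22 array and between 1419 and 1817 on the other 3, so its difference of -0.99 rests on 1 array. Aspn was well above background on the ADX+PSL ZT22 array alone, at 31.6.

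Partners in the basement membrane were lower with small differences. In 11 of 12 measured genes both ADX+PSL arrays read lower, where 15.8% of all genes tested did. The median over the 12 was -0.33, and none of them was 2-fold lower, where 1.13% of all genes were. Nid2, a linker of laminin and collagen IV, differed by -0.93, and the laminin chain Lama1 by -0.72. Lamc1, the most widely used gamma chain of laminin, and Nid1 differed by -0.27 and -0.31. Agrn, which is abundant in neurons, overlapped between operations with -0.04. Among 9 measured receptors, 5 (55.6%) were lower on both ADX+PSL arrays, beside the same 15.8%. Mrc2, which takes up collagen fragments, had a difference of -1.25 and Ddr2, a collagen-binding kinase, -0.59, while the brightest receptor probes, Gpr56 and Ddr1, differed by -0.12 and -0.17 and the integrin chain Itga10 by 0.26. For breakdown, 3 of 8 measured genes (37.5%) had both ADX+PSL arrays below both sham+PSL arrays. Timp1, an inhibitor of the collagenases, and Mmp2, a gelatinase, differed by -0.76 and -0.61, whereas Mmp14 and Timp4 differed by 0.19 and 0.04 and Timp2 and Timp3 by -0.25 and -0.24. The collagenases Mmp8 and Mmp13 were not above background.

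Markers of meningeal fibroblasts, the cells that make most of the fibrillar collagen of the meninges, moved with these genes. Of 12 markers measured in both operations, 10 were lower on both ADX+PSL arrays and 7 at least 2-fold lower, with a median of -1.44. Over all genes measured in both, 15.7% were lower on both ADX+PSL arrays and 205 of 20299 at least 2-fold lower. Among the 7, Slc22a6 read 50.7 and 339 in sham+PSL and 51.8 and 50.9 in ADX+PSL, so its difference rests on 1 array. The summed level of the markers, mostly from Ptgds, was 81924 and 114910 in sham+PSL and 78188 and 60139 in ADX+PSL. Foxc2, Foxd1 and Osr1 were clear of background on each sham+PSL array and on no ADX+PSL array. Slc22a2 was not above background anywhere. Of the Schwann cell markers, the myelin gene Prx read 466 and 247 in sham+PSL and 40.9 and 36.3 in ADX+PSL, and Egr2 stayed within background in ADX+PSL. Of the 6 markers of these cells measured in both operations, 2 were lower on both ADX+PSL arrays, Prx and Cdh19 (-0.28). Drp2 was higher on both, with a difference of 0.16. Foxd3, Gjb1 and Pmp22 overlapped between operations, with 0.04, -0.02 and -0.16. The median over the 6 was -0.09. The part that meningeal or nerve root tissue in the samples played in the collagen result was not tested.

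Skeletal muscle markers had a lower median still, and were highest on the sham+PSL ZT10 array. Of the 4 measured in both operations, 3 were at least 2-fold lower in ADX+PSL, with a median of -1.69. Over all genes measured in both, 205 of 20299 were 2-fold lower. Only 2 of the 4 were lower on both ADX+PSL arrays. Myh4 and Ckm were well above background on the sham+PSL ZT10 array alone. Tnni2 read 681 and 188 in sham+PSL and 105 and 109 in ADX+PSL, so it was high on the ZT10 array and separated at ZT22 as well. Red blood cell markers had a median of 0.93 over 6. At least 2-fold higher in ADX+PSL were 2, where 108 of 20299 genes measured in both operations were. None of the 6 was higher on both ADX+PSL arrays. Their sum was 135910 at ZT10 and 18767 at ZT22 in sham+PSL, against 95075 and 89810 in ADX+PSL. The positive median thus rests on the low sham+PSL ZT22 array. The part of muscle or blood in the collagen result was not tested. Leaving out each of the 4 arrays in turn gave differences between -2.47 and -2.27 for Col1a1 and between -2.61 and -2.06 for Col3a1.

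Mural cell markers were lower on both ADX+PSL arrays for 4 of 11 (36.4%), with a median of -0.20, and endothelial markers for 2 of 12 (16.7%), with a median of -0.02, beside the 15.7% over all genes measured in both operations. Medians were -0.01 for astrocytes, -0.08 for neurons, -0.06 for oligodendrocytes and -0.30 for microglia. Lower on both ADX+PSL arrays were 3 of 7 microglia markers (42.9%), 1 of 9 neuron markers (11.1%) and none of the astrocyte or oligodendrocyte markers. Cartilage and bone markers were lower on both ADX+PSL arrays for 2 of 10, with a median of -0.12.

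**Figure D3:**
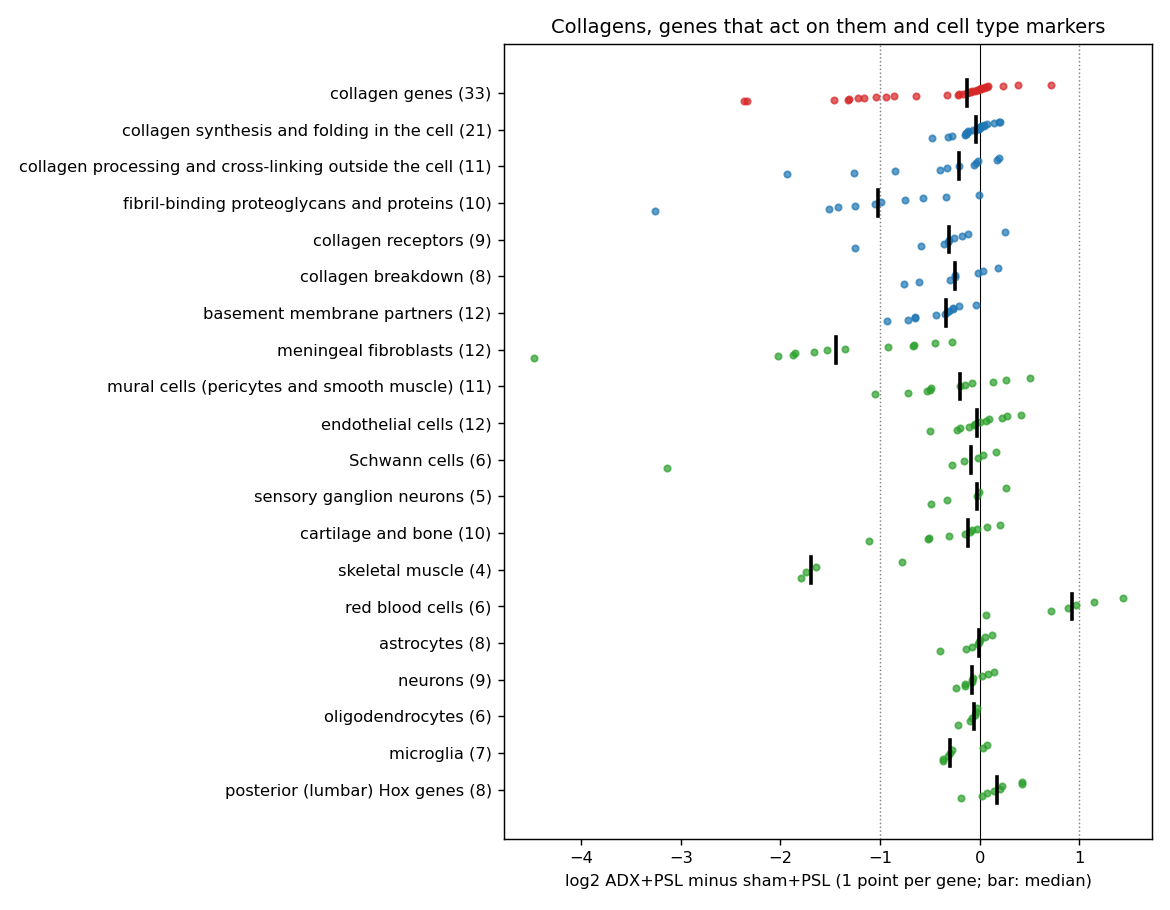
Log2 ADX+PSL minus sham+PSL for collagen genes (red), genes that act on collagen (blue) and cell type markers (green), 1 point per gene measured in both operations, number of genes in brackets, black bars for medians and dotted lines for 2-fold. Fibril-binding proteins (median -1.02), meningeal fibroblast markers (-1.44) and skeletal muscle markers (-1.69) lie left of endothelial (-0.02) and neuron (-0.08) markers. For the muscle markers Tnnc2 and Myl1 the difference rests on the sham+PSL ZT10 array alone.

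Several collagen genes lie side by side in the genome, and neighbours did not always move alike. Col3a1 and Col5a2 are neighbours, and their log2 differences were -2.33 and -0.10. Col6a1 and Col6a2 differed by -0.63 and -1.04, and Col4a5 and Col4a6, which start back to back, by -0.86 and -1.31 at their brightest probes. Col4a1 and Col4a2, which also start back to back, differed by -0.09 and -0.13.

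Promoter letters are shown for a pair of genes that were lower in ADX+PSL and a pair of bright genes that overlapped between operations. The RefSeq table of GRCm38.p6 promoters held 35 of the 43 genes and not Col1a1, Col2a1, Col4a3, Col5a2, Col9a3, Col12a1, Col14a1 or Col22a1. The 250 bases before the start are printed on the strand of the gene, at chr6:4505368-4505617 for Col1a2, chr1:45311288-45311537 for Col3a1, chr4:130047590-130047839 for Col16a1 and chr4:121039316-121039565 for Col9a2, all on the plus strand. Capitals mark the CCAAT box (CCAAT), the TATA box (TATAAA) and the GC box (GGGCGG), each searched on both strands.
Col1a2: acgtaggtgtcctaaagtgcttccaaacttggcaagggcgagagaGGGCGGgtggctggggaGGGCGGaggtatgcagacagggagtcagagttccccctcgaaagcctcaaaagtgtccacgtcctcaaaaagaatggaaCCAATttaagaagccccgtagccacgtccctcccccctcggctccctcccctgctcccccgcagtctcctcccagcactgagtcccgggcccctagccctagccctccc
Col3a1: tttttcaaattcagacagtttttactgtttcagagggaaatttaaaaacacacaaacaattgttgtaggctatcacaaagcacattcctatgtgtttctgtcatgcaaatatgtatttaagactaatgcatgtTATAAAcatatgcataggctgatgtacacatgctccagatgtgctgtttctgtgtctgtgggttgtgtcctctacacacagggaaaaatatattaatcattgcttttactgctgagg
Col16a1: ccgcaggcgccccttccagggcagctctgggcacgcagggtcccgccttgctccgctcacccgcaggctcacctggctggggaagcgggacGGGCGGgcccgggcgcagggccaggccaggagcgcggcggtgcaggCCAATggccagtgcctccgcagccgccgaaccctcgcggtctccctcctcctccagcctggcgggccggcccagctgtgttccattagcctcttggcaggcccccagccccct
Col9a2: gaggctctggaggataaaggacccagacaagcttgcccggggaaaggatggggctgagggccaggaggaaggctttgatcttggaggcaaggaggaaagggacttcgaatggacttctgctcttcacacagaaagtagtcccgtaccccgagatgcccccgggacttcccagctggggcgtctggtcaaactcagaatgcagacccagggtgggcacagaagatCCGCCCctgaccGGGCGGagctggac
Col1a2 and Col3a1, both lower, had unlike stretches, with a G and C content of 62.0% and 35.2%. Col1a2 held 2 GC boxes and a CCAAT box 109 bases before the start, and Col3a1 held 1 TATA box and neither of the others. A GC box lay in 8 of 11 lower genes with a promoter and in 10 of 16 measured genes that were not lower, and in 32.7% of 32851 promoters. A CCAAT box lay in 3 of 11 and 8 of 16, and in 33.8% of promoters. The palindromic glucocorticoid receptor element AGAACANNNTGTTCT was in none of the 35 collagen genes and in 0.00913% of promoters. Its left arm AGAACA was in Col9a1 and Col20a1 alone of the collagens, and in 16.1% of promoters. A match is a run of letters and not a bound site, and a missing match says only that the letters are not in this window.

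Time of day was compared within each operation. In sham+PSL no collagen gene was 2-fold higher at ZT10 than at ZT22, and none was 2-fold lower, where 1.52% and 1.98% of all genes were. In ADX+PSL none was 2-fold higher, where 0.875% were, and 1 was 2-fold lower, Col19a1, where 1.81% were. Col19a1, a FACIT that brain interneurons make, was well above background on the ADX+PSL ZT22 array alone, at 63.6, and read 8.41, 3.41 and 5.07 on sham+PSL ZT10, sham+PSL ZT22 and ADX+PSL ZT10. Its ZT22 level was at least 4.96-fold the ZT10 level in ADX+PSL. The value comes from 1 spot on 1 array. At ZT22 its ADX+PSL level was at least 3.46-fold that of sham+PSL.

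Smaller time differences were scattered over the classes. In sham+PSL, Col4a6 at its brightest probe was highest at ZT10 relative to ZT22 (log2 0.87), followed by Col24a1 (0.54) and Col11a1 (0.35). Lowest were Col23a1 (-0.89), Col9a1 (-0.86) and Col20a1 (-0.62). These differences exceeded the spot error of about 0.21. Each was smaller than 2 SD of the same time difference over all probes, where 1 SD was 0.60. The second Col4a6 probe, also well above background on all 4 arrays, gave 0.14 in sham+PSL. In ADX+PSL the highest were Col5a3 (0.84), Col7a1 (0.49) and, at its brightest probe, Col25a1 (0.36). The other Col25a1 probes, also well above background on all 4 arrays, gave 0.22, -0.32 and -0.32, so its sign depended on the probe. Where the probe was well above background at each time in ADX+PSL, the lowest were Col9a3 (-0.74), Col6a2 (-0.64) and Col6a3 (-0.59). Col9a3 read 85.4 and 121 in sham+PSL and 74.4 and 124.7 in ADX+PSL, so the ZT10 value was the lower one in each. Col12a1, whose levels are given above, and Col3a1 were also lower at ZT10 in each operation, and Col7a1 was higher. Col11a1 read 161 and 126 in sham+PSL, and 149.6 and 152 in ADX+PSL.

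An unadjusted limma p under 0.05 for time was reached by 5 collagen genes, Col3a1, Col7a1, Col9a3, Col12a1 and Col23a1, where 4.81% of all genes reached it. No gene of the 21953 passed an adjusted p of 0.05 for time, and with the intensity trend 11 did, none of them a collagen gene. The median log2 ZT10 minus ZT22 was 0.07 over the collagen genes in sham+PSL and -0.12 in ADX+PSL.

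**Figure D4:**
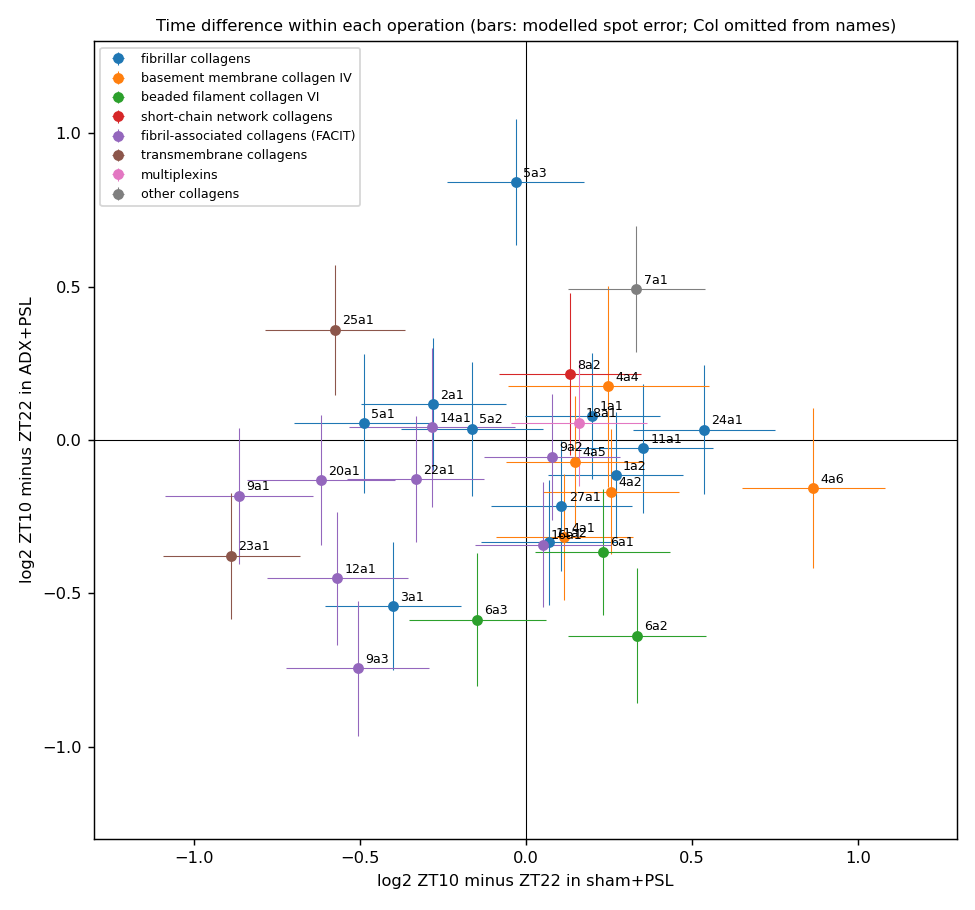
Log2 ZT10 minus ZT22 in sham+PSL (horizontal axis) and in ADX+PSL (vertical axis) for the collagen genes measured on all 4 arrays, with bars for the modelled spot error and gene names without Col. All points lie within 1 log2 unit of 0 on both axes, with Col23a1 (-0.89 in sham+PSL) and Col5a3 (0.84 in ADX+PSL) near the edges.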

How the data were processed

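RNA of the lumbar spinal cord was hybridised to 1-colour Agilent arrays, 1 array for each of 4 conditions. The authors deposited normalised intensity values, linear and set to a common distribution. They matched quantile normalisation of the processed signal (r of at least 0.99999 on each array). The scanner intensity and the flag for signal well above background came from the deposited scanner files, whose headers name Feature Extraction 10.7.1.1, while the submitters' notes name 9.5.1.1. Values were averaged over spots of a probe and taken as log2. Coordinates are those of the mm9 array design. Where a group was not well above background, folds are bounds against the lowest level well above background on that array.

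Tests used limma 3.58.1 in R 4.3.3 with operation and time, 21953 genes and Benjamini-Hochberg adjustment, after the code was tested on simulated data. The rest used pandas in Python. The members and lists were chosen with earlier results of these data known. Full values are given for the 3 brightest genes of each class, the 5 largest differences in each direction, the most extreme time ratios and genes whose probes disagreed, and for other lists the brightest and most extreme members. Alternatives covered normalisation, background correction, outlier spots, filters, probe choice, fold limit, variance trend, the time term and each array left out. One marker gene is not reported here.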

Additional observations from a re-analysis of the deposited data

How the results depend on the processing

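Of 13 collagen genes lower on both ADX+PSL arrays, 12 stayed so under all 7 other ways of normalising or correcting the signal, and Col5a2 did not. Leaving out 1 array, so that fewer arrays have to be separated, gave 16 to 20 such genes, the highest without ADX+PSL ZT22. The share over all genes was then 29.8% to 32.9% instead of 15.8%, and it was 29.8% without ADX+PSL ZT22. The count of collagen genes at least 2-fold lower was 3 with normexp correction and 3 with the uncorrected mean signal, instead of 8, and 5 with the second brightest probe of each gene, while the share over all genes was 0.351%, 0.323% and 1.12% instead of 1.13%. The count of collagen genes passing the limma test for operation was 0 in the fit reported. It was 3 with the intensity trend, where 0.178% of all genes tested passed. With normexp, the uncorrected signal or only genes well above background on all 4 arrays it was 2 each. The shares over all genes for those settings are not given here, so these counts cannot be read as particular to collagens. Collagen genes past 2-fold between times numbered 2 in sham+PSL and 2 in ADX+PSL without the filter on dim probes, where 6.98% and 6.3% of all genes were past it, and 4 and 5 at a limit of 1.5-fold, where 8.67% and 6.48% were. In ADX+PSL the count was 0 with normexp, the uncorrected signal, the filter on all 4 arrays and the second brightest probe, where between 0.487% and 2.8% of all genes were past it. Col4a6 changed sign with its second probe, to 0.046. The causes of these shifts were not tested. Among 488 values of single collagen genes under alternatives, 404 moved by less than the spot error and 83 by more. The additive model could not be fitted with an array left out, since no residual degree of freedom remained. No paired analysis was possible because each condition has 1 array and all are numbered 1, and the limma model already pairs the operations by time. Dim genes such as Col8a1 and Col4a4 are the least certain.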
